A study of Mus musculus with 12 samples.

Results

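Gata1, Gata2, Zfpm1, Tal1, Lyl1, Lmo2, Ldb1, Gfi1b, Klf1 and Nfe2 encode GATA factors and the cofactors and downstream factors that work with them in the erythroid and megakaryocyte lineages. These 10 genes were followed across 6 groups of EML1 cells. They were chosen by role, with earlier results of these data known, and so were the gene lists further on. Counts of members or list genes beside all tested genes are therefore descriptions. The 10 genes were found by gene symbol on the array, where each symbol had 1 probe set of its own. They are 10 of 18820 genes named on the array. Genes were tested if their mean intensity over the arrays passed 60.1, which is the 40th percentile among probe sets. All 10 did, as members of 12337 tested genes.

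Expression was measured on 12 Affymetrix arrays, 2 in each group. EML1 is a haematopoietic progenitor line that arose when marrow cells of male BDF1 mice were infected with LRARalpha403SN, a retroviral vector that every group therefore carried. The TEL-AML1 groups also carried the coding sequence of TEL-AML1, the leukaemia fusion of ETV6 with RUNX1, in the lentiviral vector pWPI, and were profiled untreated, at day 5 and at day 7 of treatment with IL7 and FLT3L. The empty-vector groups carried pWPI without an insert and were profiled at the same times. Untreated cells grew with horse serum and medium conditioned by BHK/MKL cells. The culture protocol for B-cell differentiation names confluent OP9 stromal cells in alpha-MEM with fetal bovine serum, IL7 at 10 ng/ml, FLT3L at 80 ng/ml and beta-mercaptoethanol, whereas the titles of the samples give IL7 and FLT3L alone. All groups stem from a single cell line, and the labels do not say whether the infected cells were pools or clones. Nothing in the labels says that the replicates were separate cultures, so p-values rest on a spread between arrays that may be technical only.

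GATA2 acts in stem and progenitor cells and in mast cells, and GATA1 takes over many of its DNA sites as cells turn to the erythroid and megakaryocyte lineages. GATA1 works with its cofactor FOG1, the product of Zfpm1, and in a complex in which the helix-loop-helix factors TAL1 or LYL1 are joined to it through LMO2 and LDB1. GFI1B is a transcriptional repressor that acts within both lineages. KLF1 drives red cell genes through CACCC boxes, and NFE2 pairs with small MAF proteins to drive platelet and globin genes. TEL-AML1 keeps the DNA-binding Runt domain of RUNX1.

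Array medians lay between 68.1 and 72.9 intensity units, and no array was left out. The progenitor marker Kit was bright in every group, between 2186 and 2744 intensity units over the 12 arrays. The summed intensity of all 7 named progenitor markers, 6 of them tested, lay between 10621 and 12152. Flt3, the receptor of FLT3L, read between 45.3 and 55.9 on all arrays and did not pass the filter. Runx1, part of which is in the fusion, differed by 0.11 ± 0.11 (log2, SE) in untreated TEL-AML1 against empty-vector cells, with an adjusted p = 0.713 from limma, and whether its probe set reads the fusion was not tested. Stroma markers were called higher after treatment mainly in empty-vector cells at day 5, 13 of 16 tested, against 8.45% of all tested genes. At day 7 with the empty vector 2 of 16 were called higher, against 6.29%. With TEL-AML1 none was called at day 5 or day 7, against 1.17% and 4.77% of all tested genes called higher. All 20 named genes, 16 of them tested, summed to between 2356 and 8283 in treated and between 2296 and 2472 in untreated TEL-AML1 arrays. With the empty vector the sums were between 2544 and 9767 in treated and between 2008 and 2075 in untreated arrays. In such bulk RNA, fewer cells of a type and less RNA per cell cannot be told apart.

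The promoters of 4 of the genes are shown because they stand for the expression patterns described further on: Gata1 and Klf1, the members with the highest mean differences between the vectors besides Nfe2, Gfi1b, which was higher after treatment in both vectors, and Lyl1, which was nearly flat. Each is the 250 bases before the annotated start in the RefSeq table for GRCm38.p6, read 5′ to 3′ in the direction of the gene. Capitals mark matches, on either strand, to the GATA motifs AGATAA and TGATAA, to the CACCC box, and to TGTGGT, a core of the RUNX motif. The Gata1 window is chrX:7967911-7968160 on the minus strand, the Klf1 window chr8:84901732-84901981 on the plus strand, the Gfi1b window chr2:28621983-28622232 on the minus strand and the Lyl1 window chr8:84701207-84701456 on the plus strand.
Gata1: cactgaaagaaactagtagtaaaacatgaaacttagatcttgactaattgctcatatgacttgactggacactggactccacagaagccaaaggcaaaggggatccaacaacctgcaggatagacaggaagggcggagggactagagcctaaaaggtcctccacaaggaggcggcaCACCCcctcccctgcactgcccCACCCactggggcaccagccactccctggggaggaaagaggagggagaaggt
Klf1: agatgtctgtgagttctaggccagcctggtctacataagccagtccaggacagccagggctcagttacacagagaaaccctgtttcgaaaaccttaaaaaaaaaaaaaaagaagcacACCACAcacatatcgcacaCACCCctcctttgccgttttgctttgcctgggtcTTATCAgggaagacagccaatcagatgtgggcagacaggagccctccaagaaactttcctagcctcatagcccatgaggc
Gfi1b: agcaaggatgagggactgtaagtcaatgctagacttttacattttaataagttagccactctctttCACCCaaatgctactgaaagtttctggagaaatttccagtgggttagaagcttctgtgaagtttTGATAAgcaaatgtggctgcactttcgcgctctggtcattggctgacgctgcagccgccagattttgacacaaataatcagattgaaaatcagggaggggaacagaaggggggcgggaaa
Lyl1: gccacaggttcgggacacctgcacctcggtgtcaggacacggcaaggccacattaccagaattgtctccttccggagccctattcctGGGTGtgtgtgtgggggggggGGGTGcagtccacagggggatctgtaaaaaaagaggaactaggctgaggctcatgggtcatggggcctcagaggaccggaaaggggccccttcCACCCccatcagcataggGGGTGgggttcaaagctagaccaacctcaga

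The table matched 8 of the 10 genes, with 12 windows in all. The Gata1 window held 2 CACCC boxes, which start at -74 and -52 from the gene's start, and no match to the GATA or RUNX letters. The Klf1 window held 1 match of each kind: the RUNX core at -133 and the GATA motif at -80, both on the reverse strand, and a CACCC box at -114. The Gfi1b window held a GATA motif at -120, a CACCC box at -184, and, at -131, the spaced motif of TAL1 complexes, CTG and GATA with 9 bases between them, which overlaps that GATA motif. The Lyl1 window held 4 CACCC boxes and no GATA or RUNX match. Among all 32851 windows of this length, 16.6% held a GATA motif, 52% a CACCC box, 14% the RUNX core and 2.16% the spaced motif. These matches describe the letters of the windows, and binding was not measured here.

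The first question was how the factors differed with TEL-AML1 in each condition. In untreated cells Gata1, Nfe2 and Gata2 rose with TEL-AML1, 3 of the 10, against 2.74% of all tested genes called higher and 8.9% called in either direction. At day 5 only Gata1 passed the test, 1 of 10 against 3.04% of all tested genes called higher and 7.32% in either direction. At day 7 Gata1, Nfe2, Gata2 and Zfpm1 rose, 4 of 10 against 5.28% higher and 11.3% in either direction. A gene was called where its adjusted p, from limma with Benjamini-Hochberg adjustment over all 12337 genes of a comparison, was under 0.05.

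Averaged over the 3 conditions, the rise covered Gata1, Nfe2, Gata2, Klf1, Lmo2 and Zfpm1, 6 of 10 against 9.85% of all tested genes called higher and 22.6% in either direction. No member was called lower in any of these comparisons, against 6.16% of all tested genes untreated, 4.28% at day 5, 6% at day 7 and 12.8% in the mean. Ldb1 was lower at an unadjusted p = 0.0350 at day 7 and 0.0311 in the mean, and no other member was lower at an unadjusted p under 0.05. The median difference of the 10 was 0.0693 untreated, 0.245 at day 5 and 0.285 at day 7 (log2), beside medians of -0.00789, -0.00135 and -0.0259 over all tested genes. For Gata1, Gata2 and Nfe2 both TEL-AML1 arrays lay above both empty-vector arrays in each of the 3 conditions, as they did for 7.68% of all tested genes.

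**Figure D1:**
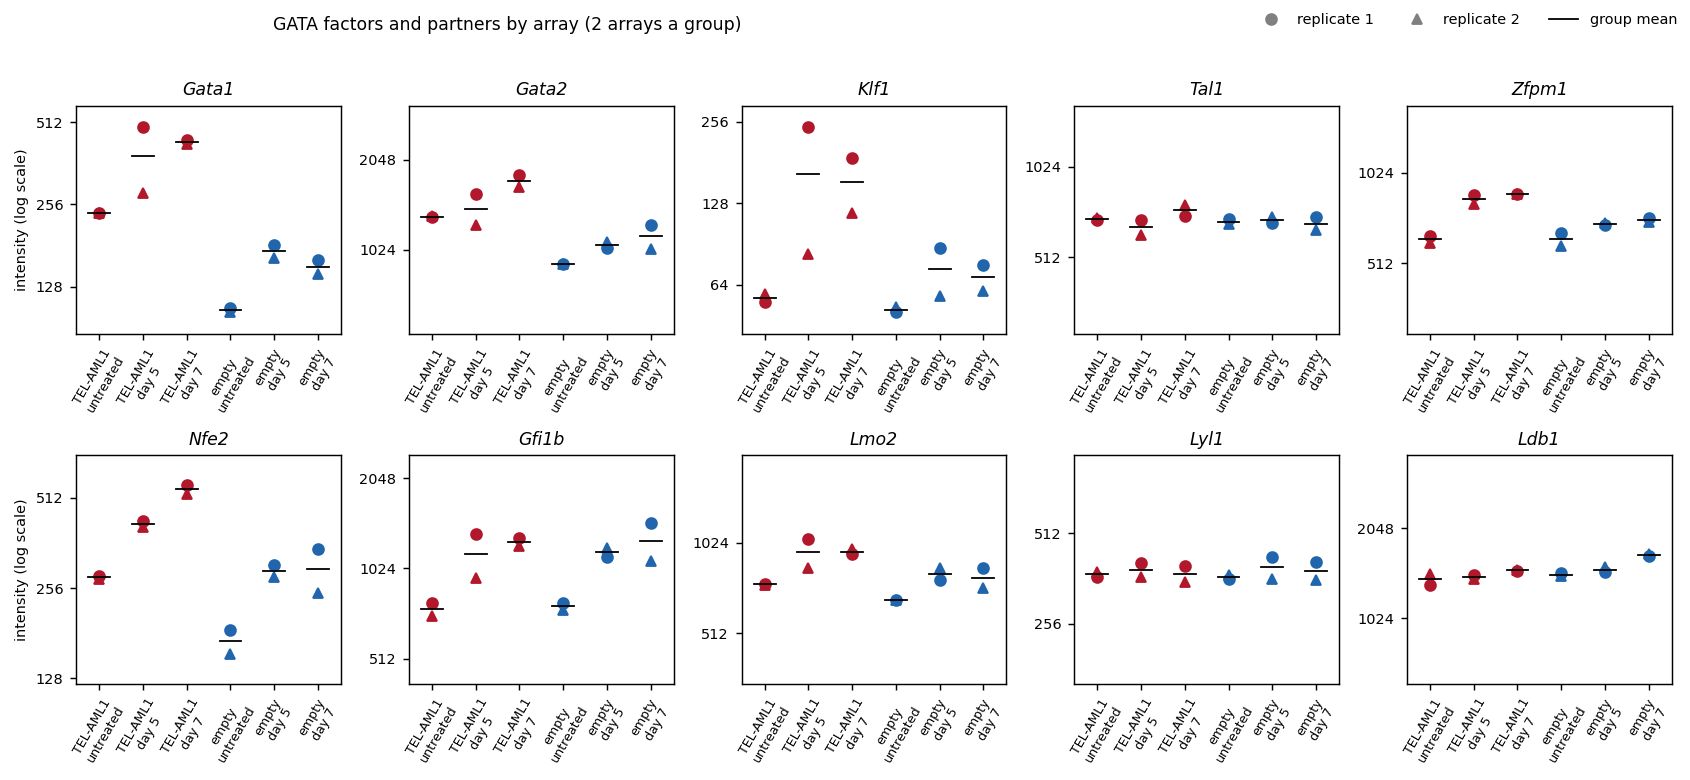
Intensity of each of the 10 genes (vertical axes, log scale) in the 6 groups, with a point for each array and a bar for the mean of its group. The Gata1 arrays with TEL-AML1 all lie above those with the empty vector, from 238 upwards against at most 182 intensity units, whereas Lyl1 stays between 353 and 428 in every group.

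Of the GATA factors, Gata1 differed most. It read 238 and 239 intensity units in untreated TEL-AML1 cells, 490.0 and 282 at day 5 and 441 and 428 at day 7, against 107 and 103, 182 and 163, and 159.9 and 142 in empty-vector cells at the same times. Each TEL-AML1 array was above every empty-vector array of any condition, and the day 5 pair with TEL-AML1 was the widest apart. Gata1 rose with TEL-AML1 by 1.07 ± 0.19 untreated (log2, SE; adjusted p = 0.00482), 1.04 ± 0.19 at day 5 (0.00729) and 1.43 ± 0.19 at day 7 (0.000883). On this scale, log2 of the intensity plus 16, which understates changes of dim genes, the mean of the 3 was 1.18 ± 0.11 (adjusted p = 2.55e-05). The day 5 call was lost when only those 2 groups were fitted (adjusted p = 0.0978) and without the second empty-vector array of day 5 (0.0633).

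Gata2 was bright in all groups. It read 1317 and 1326 in untreated TEL-AML1 cells, 1568 and 1241 at day 5 and 1813 and 1659 at day 7, against 919 and 918, 1040.3 and 1085, and 1242 and 1034 in empty-vector cells. The vectors did not overlap within any condition, though the lower day 5 array with TEL-AML1 stood level with the higher day 7 array of the empty vector. The difference was 0.52 ± 0.12 untreated (adjusted p = 0.0191), 0.39 ± 0.12 at day 5 (0.0798) and 0.61 ± 0.12 at day 7 (0.00803), with a mean of 0.50 ± 0.07 (0.000346). The untreated call was lost without any of the 4 arrays compared (adjusted p between 0.112 and 0.127), and the day 7 call without the first TEL-AML1 array (0.0624).

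Both GATA genes were thus higher with TEL-AML1, Gata1 by more. The log2 difference between Gata1 and Gata2 within an array shifted by 0.56 untreated, 0.66 at day 5 and 0.83 at day 7, TEL-AML1 minus empty vector, with no overlap of the arrays in any condition. Between Gata1 and Spi1, which encodes PU.1, a factor that opposes GATA1 in lineage choice, the same shift was 0.95, 0.70 and 1.19, again with no overlap. These are unequal changes of probe sets and not levels of one gene against another.

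Zfpm1, the gene of the GATA1 cofactor FOG1, passed the test between the vectors at day 7 and in the mean of conditions. It read 631 and 597 in untreated TEL-AML1 cells, 867 and 808 at day 5 and 869.8 and 868 at day 7, against 646 and 586, 687 and 698, and 725 and 702 in empty-vector cells. Untreated arrays of the 2 vectors overlapped, and at both later times the TEL-AML1 arrays were the higher. The difference was -0.0034 ± 0.08 untreated (adjusted p = 0.995), 0.27 ± 0.08 at day 5 (0.0635) and 0.28 ± 0.08 at day 7 (0.0395), with a mean of 0.18 ± 0.04 (0.0132). The day 7 call was lost without any of its 4 arrays (0.0749 to 0.155) and with array weights (0.137).

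The partners of the DNA-bound complex moved little. Lmo2, the bridging LIM protein, read 745 and 743 in untreated TEL-AML1 cells, 1058 and 845 at day 5 and 936 and 978 at day 7, against 658 and 659, 772 and 846, and 841 and 722 in empty-vector cells. Its arrays did not overlap untreated or at day 7, and the day 5 ranges overlapped narrowly. The difference passed the test only as the mean of the conditions, at 0.23 ± 0.06 (adjusted p = 0.0263), and this call was lost without any of 8 single arrays (adjusted p between 0.0511 and 0.0681).

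Tal1, the helix-loop-helix factor of the complex, read between 609 and 765 over all 12 arrays. Its mean difference between the vectors was 0.03 ± 0.05, with a 95% interval of -0.08 to 0.14. Lyl1, the related factor, read between 353 and 428, with a mean difference of -0.01 ± 0.06 and an interval of -0.14 to 0.13. Their arrays overlapped in all conditions but for Tal1 at day 7. No change of Tal1 or Lyl1 was called in any comparison. The intervals above hold for the mean of conditions, and those of single comparisons were wider. Between the vectors they were -0.05 to 0.33 for Tal1 at day 7 and -0.20 to 0.26 for Lyl1 untreated. All rest on a spread between arrays that may be technical only. Ldb1, the dimerising scaffold of the complex, read 1473 and 1488 at day 7 in TEL-AML1 cells, against 1657 and 1675 in empty-vector cells, and lay lower with TEL-AML1 at day 5 too, without overlap. Its differences of -0.17 ± 0.07 at day 7 (adjusted p = 0.163) and -0.10 ± 0.04 in the mean (0.106) did not pass.

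Gfi1b, the repressor, was the member with much treatment change and little vector difference. It read 788 and 713 in untreated TEL-AML1 cells, 1333 and 951 at day 5 and 1292 and 1218 at day 7, against 783 and 746, 1119.9 and 1201, and 1446 and 1083 in empty-vector cells. The vectors overlapped in every condition. The mean difference was -0.02 ± 0.09 (log2, SE; adjusted p = 0.903), with a 95% interval of -0.23 to 0.18.

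Klf1, the red cell factor, was dim, and its replicates were the least alike. It read 55.3 and 59.2 in untreated TEL-AML1 cells, 244 and 82.9 at day 5 and 188 and 118 at day 7, against 50.7 and 53.0, 87.8 and 58.2, and 75.7 and 60.7 in empty-vector cells. Untreated arrays of both vectors were below 60.1, the level of the filter, so a small difference there was not detectable. At day 7 the vectors did not overlap, and at day 5 they did. The difference was 0.11 ± 0.36 untreated (adjusted p = 0.959), 0.87 ± 0.36 at day 5 (0.204) and 0.98 ± 0.36 at day 7 (0.122). The second TEL-AML1 array of day 5, at 82.9, lay within the range of the empty-vector pair. Without it the day 5 value was 1.57, which rests on the first array, at 244, alone. The mean over conditions, 0.65 ± 0.21, just passed (adjusted p = 0.0482). It did not with quantile normalization (0.0536), centred arrays (0.0601), no filter (0.0829), a pseudocount of 64 (0.0632) or a trended and robust variance (0.0880). Nor did it pass without any of 9 single arrays.

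Nfe2, the platelet and globin gene activator, was higher with TEL-AML1 in every condition. It read 281 and 275 in untreated TEL-AML1 cells, 429 and 409 at day 5 and 566 and 528 at day 7, against 186 and 154, 306 and 279, and 347 and 247 in empty-vector cells. The vectors did not overlap in any condition, and the day 7 arrays with TEL-AML1 were the highest of all. Nfe2 rose with TEL-AML1 by 0.66 ± 0.14 untreated (log2, SE; adjusted p = 0.0123) and 0.87 ± 0.14 at day 7 (0.00281), and its day 5 difference was 0.50 ± 0.14 (0.0587). The mean was 0.68 ± 0.08 (adjusted p = 0.000144). The untreated call was lost without the second empty-vector array or either TEL-AML1 array (0.0806 to 0.129), and the day 7 calls of Nfe2 (0.0645), Gata2 (0.0712) and Zfpm1 (0.178) were lost when only the compared groups were fitted.

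Same-numbered arrays of the 2 vectors deviated together within each condition, and with the replicate block within each condition 5 members were called at day 5 in place of 1. These were Gata1, Nfe2 (adjusted p = 0.0153), Klf1 (0.020), Zfpm1 (0.0335) and Gata2 (0.0344). At day 7 the block added Klf1 (0.0106), and the untreated and mean counts stayed at 3 and 6. The gain was general: over all 12337 tested genes the calls went from 903 to 1838 at day 5 and from 1392 to 2215 at day 7.

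**Figure D2:**
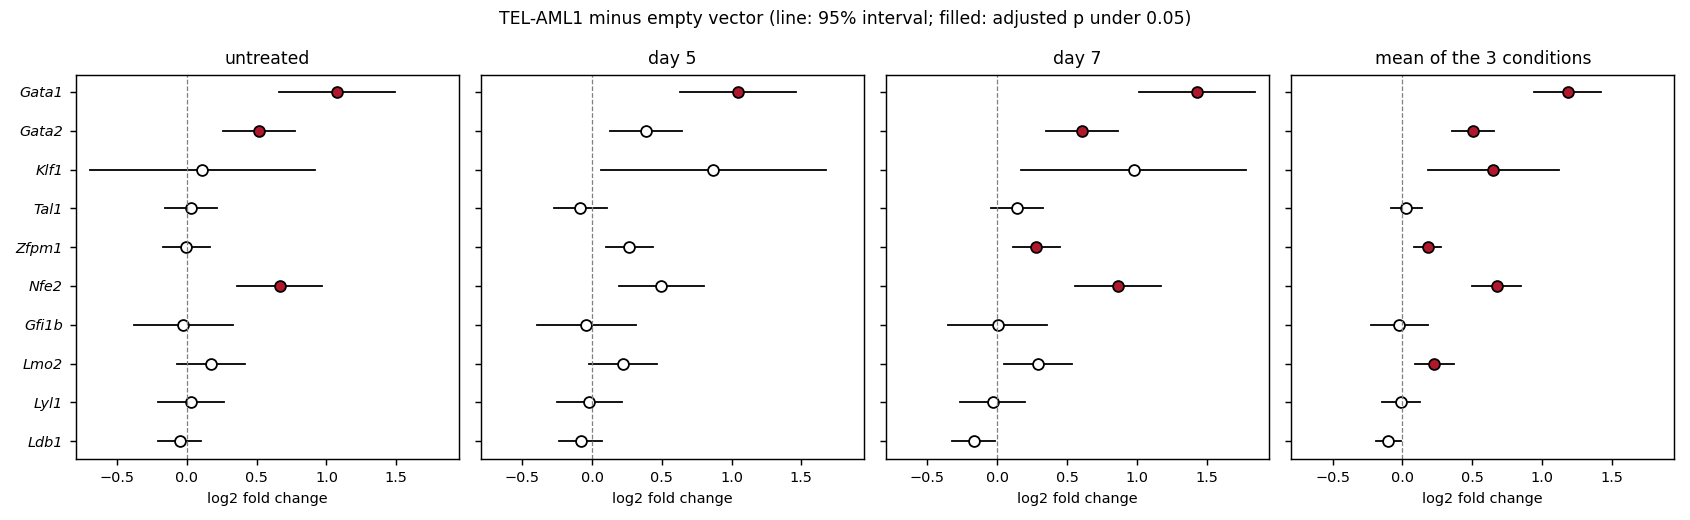
Difference of TEL-AML1 minus empty vector for each gene (horizontal axis, log2 of intensity plus 16) untreated, at day 5, at day 7 and in the mean of conditions, with 95% intervals from limma. Gata1 sits farthest right, at 1.07, 1.04 and 1.43 in the 3 conditions, while Tal1, Lyl1 and Gfi1b lie between -0.08 and 0.14.

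The second question was how the factors differed after IL7 and FLT3L within each vector. These comparisons share their untreated arrays, so day 5 and day 7 values of a vector are not independent. With TEL-AML1, Zfpm1 rose at day 5, 1 of 10 against 1.17% of all tested genes called higher and 1.6% in either direction. At day 7 Nfe2, Zfpm1, Gfi1b and Gata1 rose with TEL-AML1, 4 of 10 against 4.77% and 7.85%. With the empty vector, Nfe2, Gfi1b and Gata1 rose at day 5, 3 of 10 against 8.45% higher and 15.6% in either direction, and Nfe2 and Gfi1b rose at day 7, 2 of 10 against 6.29% and 15.5%. No member was called lower, against 0.438% of all tested genes at day 5 and 3.08% at day 7 in TEL-AML1 cells, and 7.16% at day 5 and 9.19% at day 7 in empty-vector cells. The median change of the 10 was 0.388 at day 5 and 0.439 at day 7 with TEL-AML1, and 0.248 and 0.268 with the empty vector, beside medians within 0.00968 of 0 over all tested genes.

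Among the GATA factors, Gata1 differed from untreated cells by 0.61 ± 0.19 at day 5 (log2, SE; adjusted p = 0.181) and rose by 0.82 ± 0.19 at day 7 (0.0266) in TEL-AML1 cells. In empty-vector cells it rose by 0.64 ± 0.19 at day 5 (0.0445) and differed by 0.46 ± 0.19 at day 7 (0.120). Treated arrays lay above untreated arrays of the same vector throughout. Gata2 passed in none of the 4 comparisons. With TEL-AML1 its difference from untreated cells was 0.08 ± 0.12 at day 5 (0.851), where treated and untreated arrays overlapped, and 0.39 ± 0.12 at day 7 (0.0732). With the empty vector it was 0.21 ± 0.12 at day 5 (0.279) and 0.30 ± 0.12 at day 7 (0.110), and in all but the day 5 comparison with TEL-AML1 the treated arrays lay above the untreated ones.

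The Gata1 and Gfi1b calls of TEL-AML1 cells at day 7 were each lost without any of the 4 arrays compared, with adjusted p between 0.0724 and 0.177. The day 5 call of Gata1 in empty-vector cells was lost without any of its 4 arrays (0.121 to 0.201), with quantile normalization (0.0637) and, at a change of 0.18, with the arrays' stroma level as a covariate (0.747).

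Zfpm1 rose by 0.44 ± 0.08 at day 5 (log2, SE; adjusted p = 0.0174) and by 0.49 ± 0.08 at day 7 (0.00435) with TEL-AML1, where the day 5 call was lost with the stroma covariate (0.166) and without 3 of the single arrays (0.102 to 0.225), and the day 7 call without the second untreated array (0.0671). With the empty vector it differed by 0.17 ± 0.08 (0.171) and 0.21 ± 0.08 (0.0890). Lmo2 differed by 0.36 ± 0.11 at day 7 with TEL-AML1 (0.0789) and by 0.24 ± 0.11 with the empty vector (0.171). Ldb1 differed by 0.10 ± 0.07 (0.488) and 0.22 ± 0.07 (0.0612) in the same comparisons, and Tal1 and Lyl1 by no more than 0.10 in size in any of the 4.

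Gfi1b differed from untreated levels in TEL-AML1 cells by 0.58 ± 0.16 at day 5 (log2, SE; adjusted p = 0.138) and rose by 0.73 ± 0.16 at day 7 (0.0229). In empty-vector cells it rose by 0.59 ± 0.16 at day 5 (0.0328) and by 0.70 ± 0.16 at day 7 (0.0181), and in both vectors all treated arrays were above both untreated arrays. The day 5 call with the empty vector was lost without any of its 4 arrays (0.0717 to 0.178) and with the stroma covariate (0.255), and the day 7 call without either untreated array or the first day 7 array (0.0827 to 0.121). Nfe2 differed by 0.56 ± 0.14 at day 5 (0.0901) and rose by 0.94 ± 0.14 at day 7 (0.00337) in TEL-AML1 cells, and it rose by 0.73 ± 0.14 at day 5 (0.00955) and 0.74 ± 0.14 at day 7 (0.00849) in empty-vector cells. Its calls with the empty vector at day 5 and day 7 were lost without the second untreated array. The day 5 call was also lost with the stroma covariate (0.0545, at a change of 0.99), and the day 7 call with only the compared groups (0.0819). Klf1 differed by 1.13 ± 0.36 at day 5 (0.199) and 1.17 ± 0.36 at day 7 (0.0787) in TEL-AML1 cells, and by 0.37 ± 0.36 (0.566) and 0.31 ± 0.36 (0.607) in empty-vector cells.

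**Figure D3:**
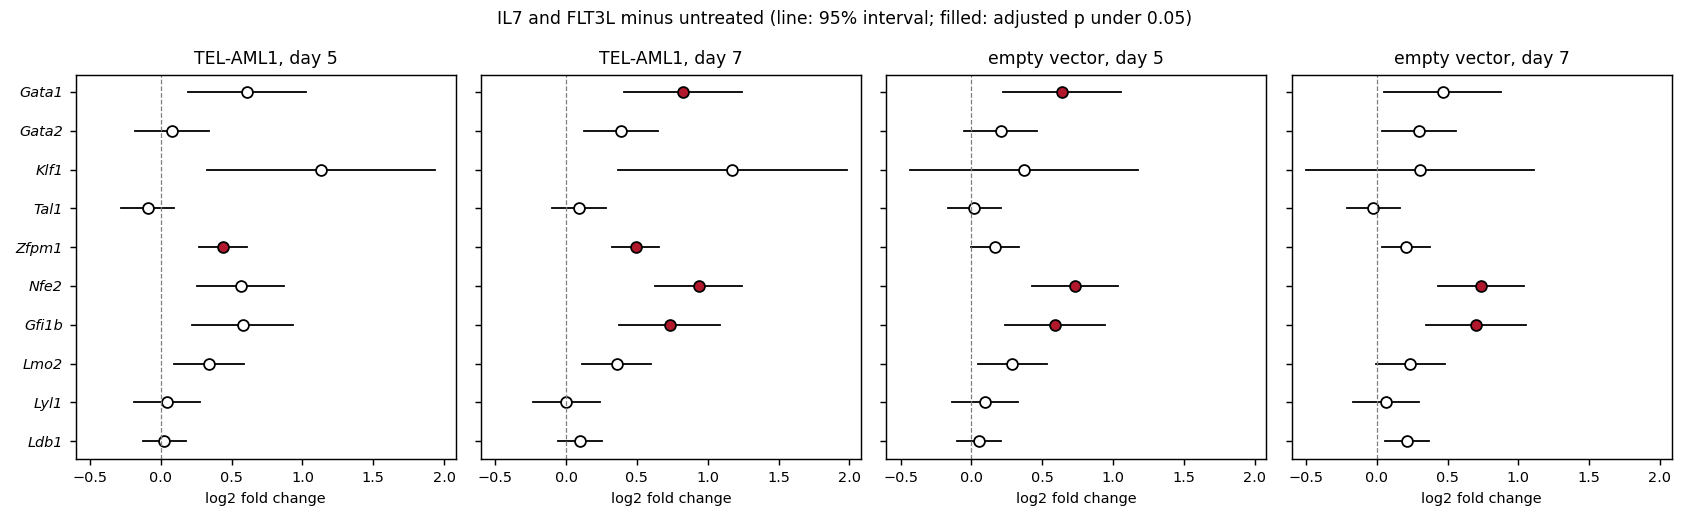
Change of each gene at day 5 and day 7 against untreated cells (horizontal axis, log2 of intensity plus 16), in TEL-AML1 and in empty-vector cells, with 95% intervals. The intervals of Nfe2, Gfi1b and Gata1 lie wholly right of 0 in all 4 comparisons. The points of all other genes but Tal1 also lie right of 0 in all 4, and the Klf1 intervals are the widest.

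Whether the response differed between the vectors was tested as an interaction. No member passed at day 5, where 0.0324% of all tested genes were called and the lowest adjusted p of a member was 0.624, or at day 7, where 0.0811% were called and the lowest was 0.479. At an unadjusted p under 0.05 there was 1 member at each time, Zfpm1, with 0.27 ± 0.11 at day 5 and 0.28 ± 0.11 at day 7. Klf1 had the highest values, 0.76 ± 0.51 and 0.87 ± 0.51, with 95% intervals of -0.38 to 1.90 and -0.27 to 2.01. The calls of Zfpm1 and Gata1 in only some conditions therefore do not show that those conditions differ.

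Other genes of the complexes were called about as often as genes in general. Of 28 partners and corepressors tested, 1 rose and 5 fell with TEL-AML1 in the mean of conditions, 21.4% called against 22.6% of all tested genes, with a median of -0.0401 (log2) beside -0.0135 for all tested genes. Tcf4, an E protein that can pair with TAL1, fell by 0.49 ± 0.06 (adjusted p = 0.000184). Ssbp2, which stabilises LDB1, fell by 0.32 ± 0.05 (0.000718), and Lmo4, a LIM protein that also binds LDB1, fell by 0.49 ± 0.07 (0.000759). Kdm1a, the histone demethylase recruited by GFI1B, rose by 0.21 ± 0.06 (0.0237).

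Of 35 other factors of the erythroid, megakaryocyte and mast branches tested, 4 rose and 6 fell, 28.6% called, near the 22.6% of all tested genes. Mafk, a small MAF partner of NFE2, read between 211 and 270.3 in TEL-AML1 cells and between 310.0 and 398.5 in empty-vector cells, with no overlap. It fell by 0.58 ± 0.07 in the mean of conditions (adjusted p = 0.000128), while Nfe2 itself rose. Another small MAF gene, Mafg, differed by 0.06 ± 0.05 (0.443). Meis1, a progenitor homeobox factor, fell by 0.72 ± 0.08 (7.03e-05) and Gata3, the T-cell GATA factor, by 0.54 ± 0.08 (0.000618), so Gata1, Gata2 and Gata3 did not move to the same side. Gfi1, the relative of Gfi1b, rose by 0.33 ± 0.05 (0.00104).

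Red cell genes known to lie under GATA1 and KLF1 were split. Of 36 tested, 9 rose and 6 fell with TEL-AML1 in the mean of conditions, 41.7% called against 22.6% of all tested genes, of which 9.85% rose and 12.8% fell. The median of the 36 was 0.138 (log2) beside -0.0135 for all tested genes. Car1, a carbonic anhydrase of red cells, read 205 and 238 in untreated TEL-AML1 cells, 2238 and 1113 at day 5 and 2308 and 1689 at day 7, against 62.1 and 73.2, 339.7 and 194, and 441 and 124 in empty-vector cells. The vectors did not overlap in any condition, and the mean rise was 2.34 ± 0.28 (adjusted p = 0.000165). Car2, another carbonic anhydrase, fell by 3.53 ± 0.14 (1.46e-07), and Epb42, a membrane skeleton protein of red cells, fell by 0.98 ± 0.08 (9.78e-06).

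The sum of red cell markers was highest in the treated TEL-AML1 arrays, where Klf1 also reached its highest values. This summed intensity of the 9 named markers, 8 of them tested, was 1640.0 and 1645 in untreated TEL-AML1 cells, 3964 and 2565 at day 5 and 4219 and 3191 at day 7. In empty-vector cells it was 1435 and 1377, 1509 and 1431, and 1652 and 1337 at the same times. Car1 is among these markers, and its rise given above makes up most of the rise of the sum in treated TEL-AML1 arrays. Of the 8 tested markers, 4 rose and 1 fell with TEL-AML1 in the mean of conditions, 62.5% called against 22.6% of all tested genes. Within each treated TEL-AML1 pair the array with the higher Klf1 also had the higher red cell sum. The other pairs had the same order, except untreated empty-vector cells, where the array with the higher Klf1 had the lower sum. The part of red cell content in the Klf1 values was not tested. Of the 5 tested genes whose log2 values correlated best with Klf1 over the 12 arrays, 3 were red cell genes: Alad of haem synthesis (Pearson r 0.966), and Ermap (0.965) and Rhag (0.959) of the red cell membrane. The 12 arrays are 6 groups of 2, so group differences carry much of each correlation.

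**Figure D4:**
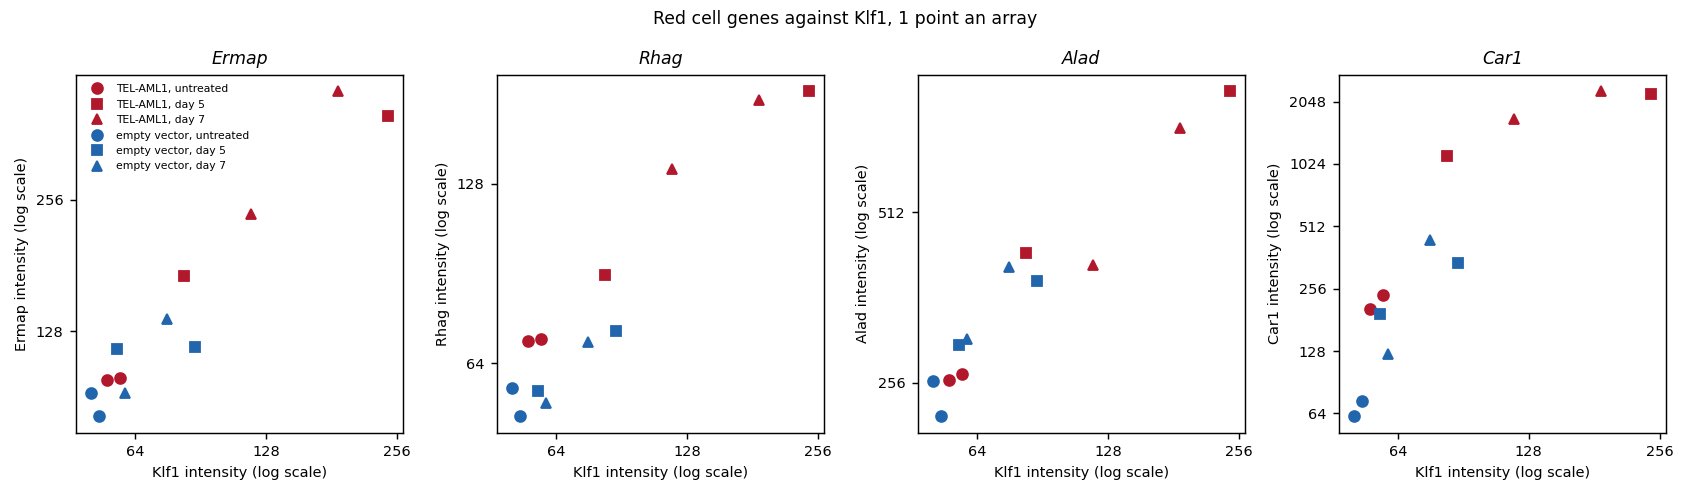
Klf1 intensity (horizontal axes, log scale) against that of Ermap, Rhag, Alad and Car1 (vertical axes, log scale), in a panel for each gene. Each panel has a point for each of the 12 arrays, by vector and condition. Treated TEL-AML1 arrays reach up to 244 for Klf1, and all other arrays lie at or below 87.8.

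Of 21 tested megakaryocyte genes under GATA1 and NFE2, 3 rose and 6 fell in the mean of conditions, 42.9% called against 22.6% of all tested genes (9.85% higher, 12.8% lower), with a median of -0.0674. Gp9, a platelet glycoprotein, fell by 1.06 ± 0.06 (adjusted p = 8.67e-07) and F13a1, the coagulation factor subunit, by 2.00 ± 0.07 (5.72e-08), while Slc6a4, the serotonin transporter of platelets and mast cells, rose by 2.12 ± 0.15 (5.93e-06). Itga2b, the platelet integrin and a textbook GATA1 target, differed by -0.11 ± 0.05 (0.105).

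Mast cell and basophil genes moved to a single side. Of 24 tested under GATA1, GATA2 and MITF, 15 were called in the mean of conditions (62.5% against 22.6% of all tested genes) and all 15 rose, with a median of 0.266 beside -0.0135 for all tested genes, of which 9.85% rose. Ms4a2, the beta chain of the IgE receptor, rose by 2.04 ± 0.19 (adjusted p = 2.70e-05) and Hdc, the histamine-forming enzyme, by 2.12 ± 0.20 (2.72e-05). Mitf, a factor of mast cells, fell by 0.22 ± 0.05 (0.00891), and Kit differed by -0.03 ± 0.06 (0.805). The summed intensity of all 11 named mast and basophil markers, 10 of them tested, was between 9448 and 14494 on the TEL-AML1 arrays. On the empty-vector arrays the mast and basophil sum was between 7151 and 8932, with no overlap. Its part in the differences of Gata1, Gata2 and Nfe2 was not tested.

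Genes of the progenitor state linked to GATA2 showed 3 higher and 2 lower of 16 tested, 31.2% called against 22.6% of all tested genes (9.85% higher, 12.8% lower), with a median of -0.0279. The lists overlap: Hdc, higher here, is also counted in the mast cell list, and Meis1, lower here, among the other factors. Angpt1, a ligand of the receptor TIE2, rose by 1.13 ± 0.11 (adjusted p = 3.07e-05). After treatment, 9 of the 36 red cell genes rose at day 7 in TEL-AML1 cells, against 4.77% of all tested genes, and 3 rose in empty-vector cells, against 6.29%. The difference between these counts was not tested. Gene by gene, the interaction at day 7 called 0 of the 36, against 0.0811% of all tested genes.

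**Figure D5:**
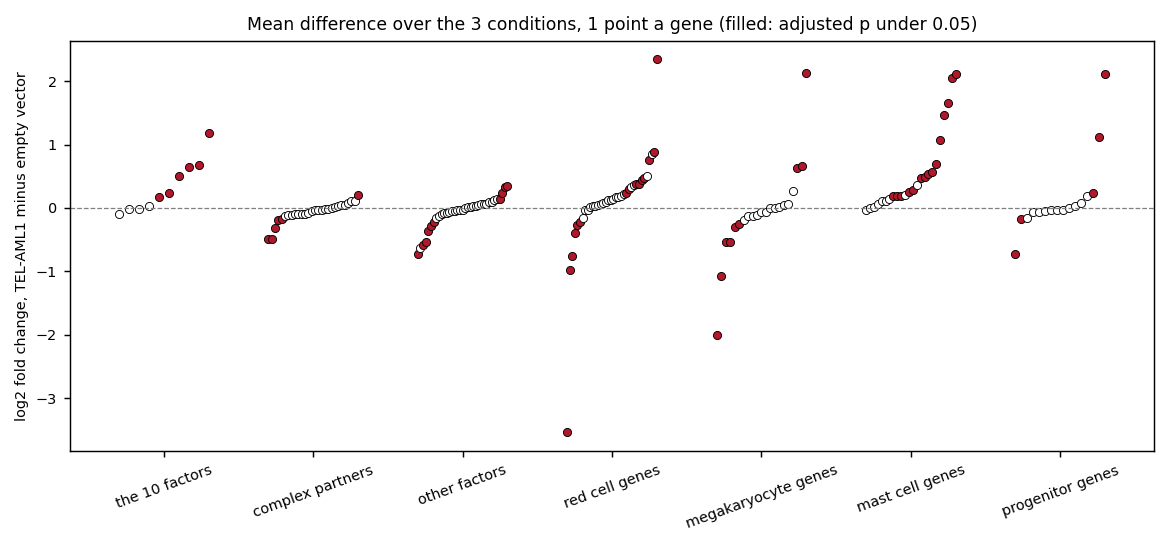
Mean difference of TEL-AML1 minus empty vector over the 3 conditions (vertical axis, log2 of intensity plus 16) for each tested gene of the 10 factors and of 6 lists, with a point for each gene. The mast and basophil list has 15 called genes, all above 0, whereas the red cell and megakaryocyte lists have called genes on both sides.

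The members also differed in which genes they resembled over the 12 arrays, a description without a test. Gata1 was most like Ampd3 (Pearson r 0.985) and Ms4a2 stood among its 5 nearest genes (0.971), as it did for Gata2 (0.968). Nfe2 was most like Angpt1 (0.983), Zfpm1 like Irf5 (0.975), Gfi1b like Ranbp10 (0.973) and Lmo2 like Smap2 (0.968). Among the members, Gata1 and Gata2 had the highest correlation (0.947), and Gata1 and Nfe2 reached 0.904. Gata1 and Gfi1b reached 0.444, and Lyl1 stayed at or below 0.472 with every other member. Lyl1 and Klf1, which lie on chromosome 8 with 13 annotated genes between them, had the 0.472.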

How the data were processed

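Total RNA of EML1 cells was extracted with TRIzol, cleaned on RNeasy columns and hybridised as biotinylated cRNA by the Affymetrix procedure, per the labels' protocols. The authors deposited 1 linear intensity per probe set and array for 35556 probe sets. Background correction and normalization are not given in the sources used here. Intensities were kept as deposited, since the log2 medians of the arrays differed by at most 0.0975. An array has no read depth, and the number of arrays limits the precision.

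Groups and replicate numbers came from the sample titles. Of the probe sets, 21218 list 1 gene in the platform annotation, 1881 several and 12457 were not listed, and only the first kind was named. Each of 18820 genes was represented by its probe set with the highest mean log2 intensity. A model of 6 group means was fitted to log2(intensity + 16) with limma 3.58.1 in R 4.3.3, with 6 residual degrees of freedom, and was tested on simulated data. P-values were adjusted by Benjamini-Hochberg over all 12337 tested genes within each comparison, with a threshold of 0.05. Same-numbered arrays of the 2 vectors correlated in their deviations from the group means within conditions (0.433 untreated, 0.543 at day 5, 0.376 at day 7), so the replicate number within a condition was also used as a block. This pairing comes from the data and not from the labels. Across conditions the correlations lay between -0.241 and 0.156.

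The 10 members and the gene lists were chosen with earlier results of these data known. All members were named, from each list up to 4 called genes with the smallest adjusted p of a comparison were eligible, besides those a sentence on a member needed, and the 5 genes most correlated with each member. No set test was run.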

Additional observations from a re-analysis of the deposited data

How the results depend on the processing

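Over 26 other settings, 58 values of the 10 genes (those called or at least 0.2 in size on the log2 scale, and the means over conditions) gave 1106 repeats. Direction and call held in 985, the call was lost in 77 and gained in 32, and the sign turned in 12. Of 42 smaller values, 58 of 784 repeats changed sign and none was called. The number of genes called at day 5 for TEL-AML1 against empty vector was 2 with no filter, a filter at the 60th percentile or a pseudocount of 64, 0 with only the compared groups, 2 with the replicate block and 5 with the replicate block within each condition, in place of 1. At day 7 it was 1 with only the compared groups, in place of 4. With TEL-AML1 it was 3 with array weights, 2 with the replicate block and 0 with the stroma covariate at day 5, in place of 1, and 7 with array weights or only the compared groups at day 7, in place of 4. With the empty vector it was 1 with centred arrays and 0 with the stroma covariate at day 5, in place of 3, and 4 with quantile normalization and 0 with only the compared groups at day 7, in place of 2. Leaving out each array gave 1 to 2 untreated, 0 to 3 at day 5, 2 to 3 at day 7 and 4 to 6 in the mean for the vectors. It gave 0 to 4 at day 5 and 1 to 2 at day 7 with TEL-AML1, 0 to 1 and 0 to 3 with the empty vector, and 0 throughout for the interaction. Lyl1's mean difference was 0.010 with quantile normalization and between -0.047 and 0.031 without single arrays, Gfi1b's lay between -0.10 and 0.058, and the Nfe2 interaction at day 7 between -0.032 and 0.43. With the stroma covariate, the Klf1 difference from untreated cells was -0.27 at day 5 and -0.0090 at day 7 of the empty vector. The causes were not tested. Over all tested genes the calls for the vectors ranged from 477 to 2606 untreated (1098 as reported), 327 to 1838 at day 5 (903), 371 to 2215 at day 7 (1392) and 1993 to 3948 in the mean (2788). They ranged from 80 to 469 (198) and 200 to 2230 (968) at day 5 and day 7 with TEL-AML1, from 202 to 2093 (1926) and 290 to 2799 (1910) with the empty vector, and from 1 to 24 (4) and 0 to 75 (10) for the interaction. Of 360 repeats each for the 6 lists, 9 medians and 12 counts moved. The replicate number alone as a block did not pair arrays across conditions. With 2 arrays a group, a left-out array leaves a lone sample assumed to vary like the other groups, and dim genes such as Klf1 are limited by signal over background.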
